A study of Mus musculus with 7 samples.

Results

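The genes described here are 7 enzymes of fatty acid ω-oxidation in mouse liver: Cyp4a10, Cyp4a14, Cyp4a12a, Cyp4a12b, Cyp4a31 and Cyp4a32, which form a cluster on chromosome 4, and Aldh3a2 on chromosome 11. They were chosen by name, not by a measured value, and are 7 of 20587 protein-coding genes with a known strand. Peaks of 6 lists were assigned to them when the midpoint lay in a gene or within 50 kb of it, and a peak shared by neighbours of the cluster was counted once. There were 109 peaks at the Cyp4a cluster, which merged by overlap into 35 regions, and 36 peaks in 12 regions at Aldh3a2, out of 245004 peaks in 87802 regions in all. The cluster window was chr4:115249046-115672507 and the Aldh3a2 window chr11:61173417-61317528 in GRCm38 (mm10), the build of the lists.

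The study carried out chromatin immunoprecipitation followed by sequencing (ChIP-seq) on livers of male C57BL/6 wild type mice aged 3 months. Mice received a normal diet (control) or a diet with retinoic acid (RA), the ligand of the RARs, for 1 day according to the labels, whereas the study's methods give a longer treatment, so the duration is not settled. Chromatin was precipitated with an antibody to a retinoic acid receptor, RARα or RARβ, or to the retinoid X receptor RXRα, with 1 library per receptor and diet and an input library that was not used here. Each comparison therefore sets 1 library beside another. It has no replicate and no test, and the sources do not say whether livers were pooled.

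In ω-oxidation, microsomal Cyp4a enzymes hydroxylate the terminal carbon of a fatty acid, alcohol dehydrogenases turn the product into a fatty aldehyde, and the fatty aldehyde dehydrogenase Aldh3a2 oxidises it on the way to a dicarboxylic acid. RXRα binds DNA as the partner of several nuclear receptors, among them the RARs and the fatty acid receptor PPARα, usually at repeats of a short half-site. Cyp4a10 and Cyp4a14 are classic PPARα targets of mouse liver, Cyp4a12a is the male-predominant enzyme that makes an arachidonic acid metabolite acting on blood vessels, and loss of the human counterpart of Aldh3a2 causes Sjögren-Larsson syndrome.

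From left to right the cluster holds Cyp4a12a (chr4:115299046-115332815), its near copy Cyp4a12b (chr4:115411624-115439034), Cyp4a14 (chr4:115486200-115496158), Cyp4a10 (chr4:115518287-115533649), Cyp4a31 (chr4:115563627-115579015) and Cyp4a32 (chr4:115600927-115622507). Cyp4a14 lies on the minus strand and the others on the plus strand. Aldh3a2 (chr11:61223417-61267528) lies on the minus strand. Positions below are given from the start of a gene to the midpoint of a peak, with negative values upstream.

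RefSeq promoter sequence in GRCm38.p6 was at hand for 2 of the 7 genes, Cyp4a32 and Aldh3a2. The Cyp4a32 stretch (chr4:115600688-115600937, plus strand) is shown because it overlapped a peak in 5 lists, all but RARβ control. It runs from -239 to 10 bp of the start used here, and is printed from 5′ to 3′ with a half-site match in capitals.

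Cyp4a32: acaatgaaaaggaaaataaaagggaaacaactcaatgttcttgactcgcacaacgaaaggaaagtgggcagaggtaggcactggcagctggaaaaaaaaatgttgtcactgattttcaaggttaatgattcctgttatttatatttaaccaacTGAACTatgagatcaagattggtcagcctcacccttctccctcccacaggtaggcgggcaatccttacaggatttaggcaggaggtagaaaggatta

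Half-sites were searched on both strands, alone and as direct repeats with 0 to 5 bases between them. Of 32851 promoter stretches of the same length, 14.0% held the letters AGGTCA, whereas 11.7% of them held the letters GGGTCA. The half-site AGTTCA was found in 11.8% of them, and the half-site GGTTCA in 8.85%. At least 1 of these half-sites was found in 38.6% of stretches. Cyp4a32 held a single match, to the AGTTCA half-site, on the opposite strand from -86 to -81 bp. A direct repeat was found in 0.706% of stretches and not in this. A match is only a run of letters, and its absence says nothing about binding. The Cyp4a32 stretch had 41.6% G and C and 3 CG pairs, against medians of 52.4% and 6. The stretch for Aldh3a2 (chr11:61267187-61267436, minus strand) begins from a start further downstream and lies from 92 to 341 bp inside the gene, so it is not shown. It had 61.2% G and C, 18 CG pairs and no half-site, and it overlapped RARα peaks of both diets and a RARβ control peak, with no RXRα peak.

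The lists differed in length. RARα had 35521 peaks under control diet and 44296 under RA, RARβ had 14968 and 29467, and RXRα had 61128 and 59624. The study's text gives totals of uniquely mapped reads for RXRα and RARα, the latter higher, but names no diet. It describes no ChIP-seq of RARβ, and whether its totals belong to the libraries used here is not stated. The depth behind a given list is therefore not known, and its part in these lengths was not tested. In whole liver, fewer cells with a bound site and weaker binding in each cell cannot be told apart. The deposited score, which grows as the peak caller's p-value falls, was used only within a list, as a rank (1 for the highest score) or as a percentile (100 for the highest score). The labelled tissue was checked, as far as binding allows, on markers of liver cell types. Of 6 hepatocyte genes, 3 to 6 per list had a peak whose midpoint was at most 10 kb from the start, and of 4 Kupffer cell genes 0 had such a peak in any list. Peaks were found at 0 to 1 of 4 stellate cell genes, 0 to 4 of 4 endothelial genes and 0 to 1 of 4 cholangiocyte genes. Over all protein-coding genes, 45.1% to 64.6% per list had such a peak. In the RARα lists, 3 and 4 of 6 hepatocyte genes had one, under control diet and RA, and 3 and 4 of 4 endothelial genes. The markers thus did not set hepatocytes apart in the RARα lists. Whether bound chromatin came from hepatocytes was not tested.

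RXRα had the most peaks at the Cyp4a cluster. It had 30 peaks there under control diet and 27 under RA, RARα had 16 and 16, and RARβ had 5 and 15. RARβ was thus the receptor whose number of peaks differed most between diets, with an RA to control ratio of 3.0, beside 1.97 for its whole list. At Aldh3a2, RXRα had 8 and 7 peaks, RARα 7 and 6, and RARβ 4 and 4, so the RARβ ratio there was 1.0. When every list was shortened to its 14968 highest-scoring peaks, the length of the RARβ control list, the cluster held 5 RARβ peaks under control diet and 8 under RA.

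**Figure D1:**
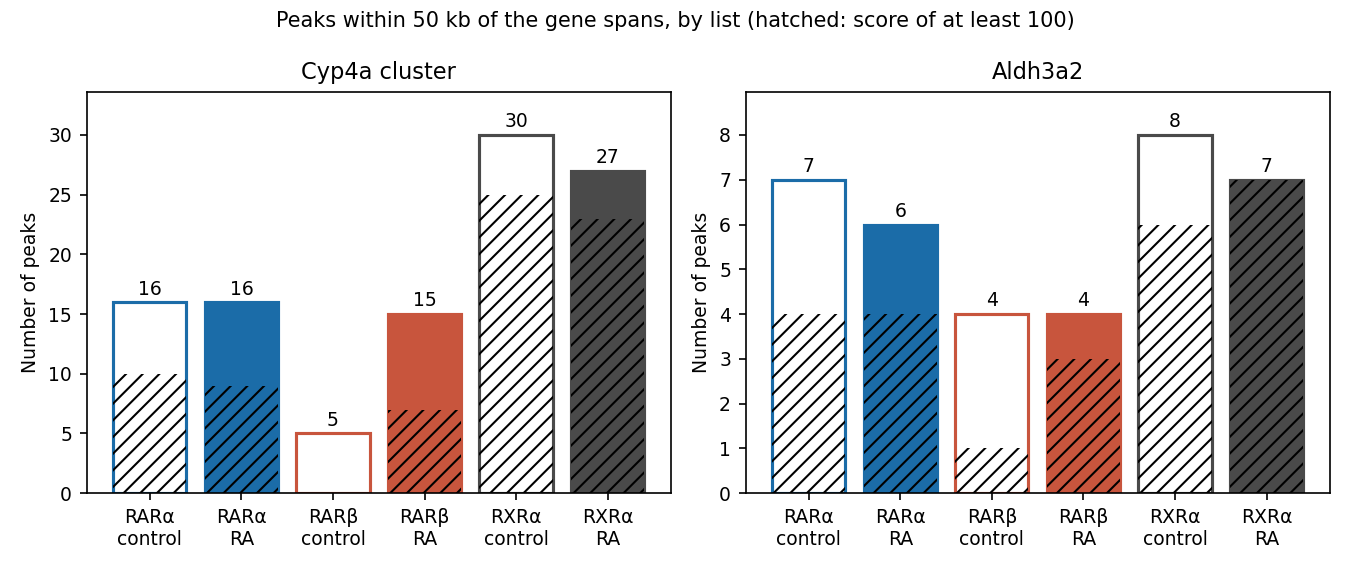
Number of peaks (vertical axis) in each of the 6 lists (horizontal axis) within 50 kb of the Cyp4a cluster (left) and of Aldh3a2 (right), with open bars for control diet, filled bars for RA diet and hatching for peaks with a score of at least 100. The RARβ bars of the cluster stand at 5 and 15, and none of the 5 control peaks reached a score of 100; the RARβ bars of Aldh3a2 both stand at 4.

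Relative to its length, the cluster was moderately rich in RXRα peaks. There were 7.08 RXRα peaks per 100 kb under control diet and 6.38 under RA, beside medians of 3.87 and 3.79 over the windows of all protein-coding genes, and 24.3% and 28.7% of genes had at least that density. For RARβ the densities were 1.18 and 3.54 (medians 0.970 and 1.96), and for RARα 3.78 and 3.78 (medians 2.72 and 3.20). At least 30.0% of genes had as many RAR peaks per 100 kb as the cluster in each RAR list. The cluster thus stood above the median in all 6 lists, but a large share of genes stood as high.

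Several RXRα peaks of the cluster stood high in their lists. In the RXRα control list 9 of the 30 peaks were in the top 10% of the list and 2 in the top 1%, and in the RXRα RA list 6 of 27 were in the top 10% and 3 in the top 1%. The highest stood at rank 318 of 61128 and rank 323 of 59624. No RARβ peak of the cluster was in the top 10% of its list under either diet. The highest RARβ peak under control diet scored 59.54 (rank 11051) and the highest under RA scored 184.52 (rank 5120). This last peak lay inside Cyp4b1, a neighbouring gene of the same family, 4.19 kb from its start.

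**Figure D2:**
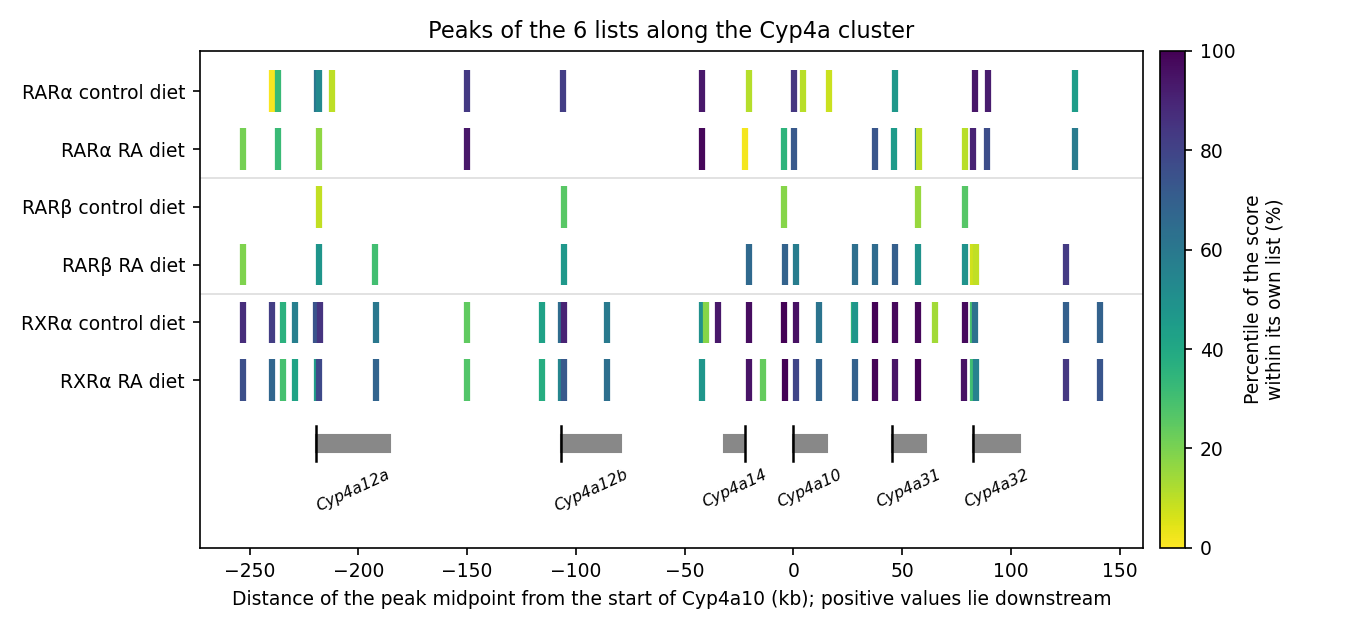
Position of each peak along the Cyp4a cluster, as the distance of its midpoint from the start of Cyp4a10 in kb (horizontal axis), in the 6 lists (rows), with color for the percentile of its score within its own list; grey bars are the genes and black ticks their starts. Dark RXRα marks stand near Cyp4a14, Cyp4a10, Cyp4a31 and Cyp4a32 under both diets, whereas the RARβ row goes from 5 marks to 15.

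All 7 genes had an RXRα peak within 10 kb of the start under both diets, where 62.6% of protein-coding genes did so under control diet and 62.9% under RA. RARα peaks lay that close to 7 of the 7 genes under control diet and to 6 under RA, beside 63.2% and 64.6% of genes, and the exception was Cyp4a12b. RARβ peaks lay that close to 5 genes under control diet and to all 7 under RA, beside 45.1% and 55.9% of genes. The genes without a RARβ peak under control diet were Cyp4a14 and Cyp4a31. With all lists shortened to equal length the RARβ counts turned around, with 5 genes under control diet and 4 under RA. Within 1 kb of the start, 4 of the 7 genes had a RARα peak under each diet (47.3% of all genes under control diet and 47.6% under RA), 3 an RXRα peak (41.3% and 43.0%) and 1 a RARβ peak (34.1% and 41.5%). These are counts over 7 genes, 6 of them neighbours, and windows of neighbours can hold the same peak.

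The highest RXRα peaks of the cluster lay upstream of or inside Cyp4a10, Cyp4a31, Cyp4a32 and Cyp4a14. The 6 regions of the cluster in the top 10% of the RXRα RA list are described next, from left to right.

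Upstream of Cyp4a14, the region chr4:115497240-115498139 at about -1.53 kb held an RXRα peak with a score of 753.98 under control diet (rank 2054) and 662.69 under RA (rank 3213). RARβ was called there only under RA, with a score of 131.05, and RARα only under control diet, with a score of 58.18. At the start itself there was only a RARα peak under RA, with a score of 52.39 near the bottom of its list (rank 43448). In the upstream region RXRα stood at percentiles of 96.6 and 94.6 of its lists, RARβ under RA at 66.3 and RARα under control diet at 11.3. Scores of different receptors are not comparable, so how much of the binding was RXRα cannot be said.

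Upstream of Cyp4a10, the region chr4:115513558-115514885 at -4.07 kb held the highest RXRα peak of the cluster under control diet, with a score of 1210.24 (rank 318) and 1230.89 under RA (rank 401). RARβ scored 56.05 there under control diet (rank 12238) and 136.90 under RA (rank 9304). RARα was called only under RA, with a score of 90.52 (rank 28855). All 3 receptors were thus called there under RA, with RXRα far higher in its list than either RAR.

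Upstream of Cyp4a31, the region chr4:115555059-115556427 at -7.88 kb held RXRα peaks of 1160.77 under control diet (rank 411) and 1183.95 under RA (rank 485). Neither RAR was called there under control diet. Under RA, RARα scored 211.10 (rank 11875) and RARβ 129.09 (rank 10161). It is the clearest case in the cluster of a site with RXRα under both diets and both RARs under RA only.

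A pair of high RXRα regions lay inside Cyp4a31. At 1.22 kb (chr4:115564230-115565462) RXRα scored 881.42 (rank 1246) under control diet and 665.31 (rank 3183) under RA, RARα 104.78 and 111.97, and RARβ 141.34 under RA only. At 12.07 kb (chr4:115575182-115576217) RXRα scored 934.53 (rank 1020) and 1288.47 (rank 323), the highest RXRα peak of the cluster under RA. RARβ scored 54.96 and 98.68 there, and RARα was called under RA only, with a score of 148.22.

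Upstream of Cyp4a32, the region chr4:115596118-115597588 at -4.07 kb held RXRα peaks of 811.23 (rank 1642) and 712.74 (rank 2632). RARβ scored 59.54 under control diet and 96.99 under RA, and RARα 60.88 under RA only. The calls were those of the region upstream of Cyp4a10, at nearly the same distance.

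Over these 6 regions, RARβ was called in 3 under control diet and in 6 under RA, and RARα in 2 and in 5, with 4 regions called for RARα under RA only. These 6 regions were picked for their RXRα score, after the values were seen. Over all 5960 regions that held a top-10% peak of the RXRα RA list, RARβ was called in 41.6% under control diet and 93.5% under RA, and RARα in 66.2% and 84.5%, with 22.5% called for RARα under RA only. RARβ calls at high RXRα regions were thus more numerous under RA over the whole genome, and the 6 of the cluster were too few to be set apart.

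**Figure D3:**
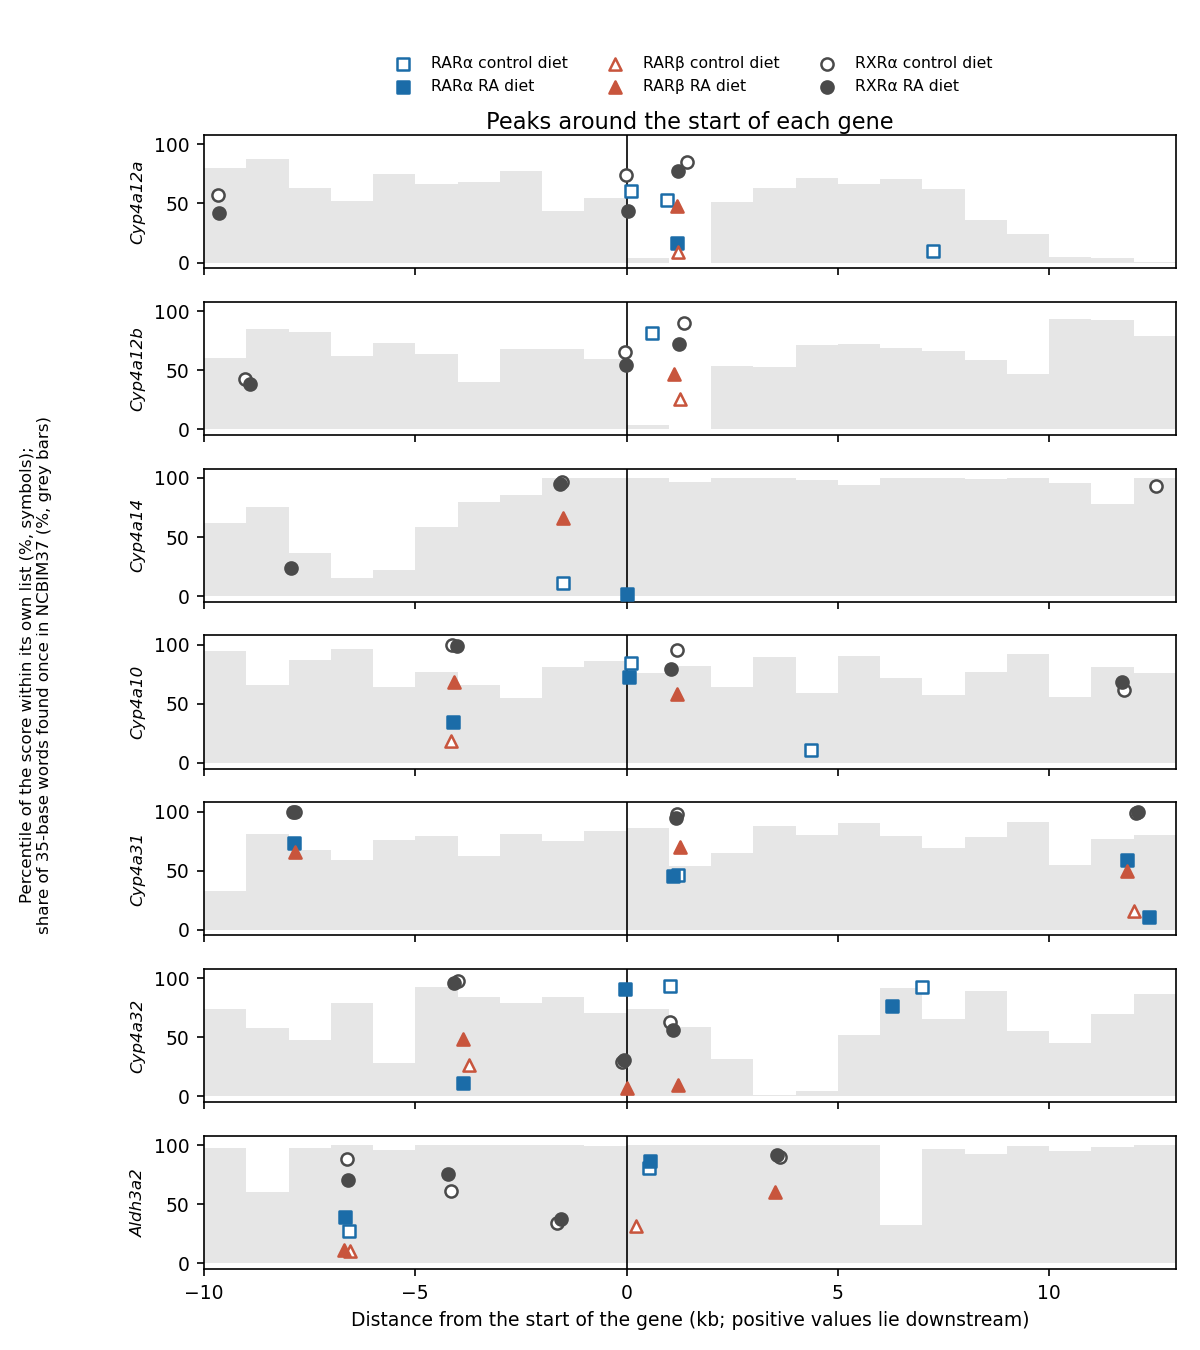
Peaks from 10 kb upstream to 13 kb downstream of the start of each of the 7 genes (horizontal axis, kb), with the percentile of each score within its own list (vertical axis, %) as squares for RARα, triangles for RARβ and circles for RXRα, open for control diet and filled for RA; grey bars give the share of 35-base words in each 1-kb bin that occur once in NCBIM37. RXRα circles recur near 1.2 kb in the 5 plus-strand genes, and the grey bars are at or near 0 there in Cyp4a12a and Cyp4a12b.

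Peaks recurred at like positions in the different copies. An RXRα peak inside the gene had its midpoint at 1422 bp under control diet and 1220 bp under RA in Cyp4a12a, at 1358 and 1244 bp in Cyp4a12b, at 1185 and 1057 bp in Cyp4a10, at 1188 and 1163 bp in Cyp4a31, and at 1033 and 1098 bp in Cyp4a32. Cyp4a14, the gene on the minus strand, had no such peak. The scores were 684.53 and 332.82 in Cyp4a10 and 197.62 and 170.32 in Cyp4a32, and those of Cyp4a31 stand above. RARβ was also called near 1.2 kb in all 5 genes under RA, with scores of 95.80 in Cyp4a12a, 94.07 in Cyp4a12b, 113.17 in Cyp4a10, 141.34 in Cyp4a31 and 55.83 in Cyp4a32. Under control diet it was called there in Cyp4a12a (52.71) and Cyp4a12b (59.51) and not in the other 3.

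The copies are alike in sequence at these positions. Over the first 2 kb, aligned bases of Cyp4a12a and Cyp4a12b were 99.95% identical in NCBIM37 (mm9), the build of the genome sequence at hand. Those of Cyp4a10 were 92.6% identical to Cyp4a31 and 92.8% to Cyp4a32, and those of Cyp4a31 were 94.8% identical to Cyp4a32, whereas Cyp4a14 reached at most 67.3% with any of the others. The upstream window of Cyp4a10 from -5 to -3 kb was 88.7% identical to the same window of Cyp4a32. It was 89.9% identical to the window of Cyp4a31 from -9 to -7 kb, but 62.6% to the window of Cyp4a31 at its own distance. Thus the 3 high upstream RXRα regions lie in related stretches, and the greater distance at Cyp4a31 is that of the related stretch. From 11 to 13 kb, Cyp4a10 and Cyp4a31 were 93.6% identical. Cyp4a10 had an RXRα peak there too, at 11780 bp with a score of 187.75 (rank 23640) under control diet and at 11733 bp with 232.54 (rank 18943) under RA, far lower in its list than the peak of Cyp4a31.

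This likeness limits what can be assigned to a single gene. The reads were 35 bp long, and in the first 2 kb of Cyp4a12a and of Cyp4a12b only 3.5% of 35-base words from 0 to 1 kb, and 0.0% from 1 to 2 kb, occurred once in the genome. Peaks called there, such as the RXRα peaks of 389.25 and 312.82 in Cyp4a12a and of 495.68 and 262.94 in Cyp4a12b, cannot be told apart between the copies. The same holds in part for the RXRα peaks at the very start, which scored 270.71 and 125.75 at Cyp4a12a and 207.77 and 161.69 at Cyp4a12b. Over the whole gene the share of words found once was 40.0% for Cyp4a12a, 45.7% for Cyp4a12b, 54.6% for Cyp4a32, 73.1% for Cyp4a10, 75.9% for Cyp4a31, 92.9% for Aldh3a2 and 98.9% for Cyp4a14. In the upstream regions more words were found once than in that stretch, with 77.0% and 65.9% in the 1-kb bins from -5 to -3 kb of Cyp4a10, 92.9% and 83.9% in those of Cyp4a32, and 80.6% and 67.7% in those from -9 to -7 kb of Cyp4a31. How reads with several matches were treated was not tested, and these shares were computed in another build than that of the lists.

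RARα peaks stood at the starts of several genes, with RXRα peaks at or close to those of Cyp4a10, Cyp4a12a, Cyp4a12b and Cyp4a32. Others stood in places where RXRα was low or not called. At the start of Cyp4a10, RARα scored 274.25 (98 bp) under control diet and 206.47 (52 bp) under RA, with the RXRα peaks of 684.53 and 332.82 just downstream. Cyp4a32 had the highest RARα peak of the cluster under control diet, a peak of 3081 bp with a score of 412.32 (rank 2180). Under RA it had a RARα peak of 822 bp at -28 bp with a score of 363.42 (rank 4174). RXRα had low peaks next to this start (87.93 and 92.98). It also had peaks of 197.62 at 1033 bp under control diet and 170.32 at 1098 bp under RA (percentiles 63.2 and 56.6). The first of these lay inside the RARα peak of 3081 bp. Further inside Cyp4a32 there was a still wider RARα peak of 4179 bp under control diet (382.84) and 2387 bp under RA (232.94), with no peak of another receptor. In NCBIM37, 0.8% of words from 3 to 4 kb and 4.5% from 4 to 5 kb of this gene occur once. From 5 to 9 kb, where most of the wide peak lay, the shares per 1-kb bin were 51.8%, 91.4%, 65.4% and 89.2%. The gene spans 20634 bp in that build and 21.6 kb in GRCm38, so distances need not match. RARα peaks at the starts of Cyp4a12a (142.18) and Cyp4a12b (254.28) were called under control diet only, in the stretch shared by these copies.

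The highest RARα peak of the cluster under RA lay away from the starts. It was at chr4:115475936-115476564, 19.9 kb from the start of Cyp4a14 and beyond the end of that gene, with a score of 404.57 under control diet (rank 2288) and 594.37 under RA (rank 713). RXRα scored 141.71 and 136.24 there (ranks 30408 and 31343), and RARβ was not called. A region of the same kind at -43.33 kb of Cyp4a12b had RARα scores of 267.73 (rank 5906) and 412.28 (rank 2921), low RXRα scores of 79.65 and 86.14, and no RARβ. Both regions ranked higher for RARα under RA than under control diet. For RXRα the first lay near the middle of its lists (percentiles 50.3 and 47.4) and the second in the lower part (24.4 and 27.3).

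Sharing between receptors was counted next. Peaks count as shared when the overlap covers 25% or more of each. All 5 RARβ control peaks and all 15 RARβ RA peaks of the cluster were shared with RXRα of the same diet, beside 77.9% and 89.9% of the whole RARβ lists. RARα shared 8 of 16 peaks with RXRα under control diet and 11 of 16 under RA, beside 61.1% and 61.7%. Of the RARβ peaks, 1 of 5 was shared with RARα under control diet and 8 of 15 under RA, beside 74.2% and 72.1%. RARβ peaks of the cluster were therefore found with RXRα under both diets. The low count with RARα under control diet rests on only 5 peaks, on the overlap rule and on no test. A RARβ peak of 474 bp in Cyp4a12b lay wholly inside a RARα peak of 1911 bp. It was not counted as shared because it covered less than 25% of that peak.

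Between diets, 10 of the 15 RARβ RA peaks of the cluster were not shared with the control list, where 61.8% of all RARβ RA peaks were not, and 0 of the 5 control peaks were missing under RA, where 24.2% were. RARα had 7 of 16 RA peaks not shared with control (31.6% of the list) and 7 of 16 control peaks not shared with RA (15.8%). RXRα had 1 of 27 (19.7%) and 3 of 30 (21.3%). The RARβ RA count was near the share of its whole list. The RARα RA count depended on the low peaks. Over all 7 genes, RARα RA peaks not shared with control numbered 7 with all peaks, 2 at a score of at least 100 and 1 with lists of equal length. For RXRα they numbered 1, 1 and 3 in the same settings. Of the 3 RXRα peaks found under control diet only, the highest lay beyond the end of Cyp4a14 at 12.53 kb from its start (chr4:115483258-115483994), with a score of 586.89 (rank 4054).

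Counted by region, RXRα was called under both diets in 24 of the 35 regions of the cluster (53.2% of all regions) and RARα in 9 (33.8%). RARβ was called under RA only in 9 regions (19.8%), and with RXRα under both diets in the same 9 (16.5%). These percentages are shares of all regions. Of the 17343 regions in all with RARβ under RA only, 14450 had RXRα under both diets, as all 9 of the cluster did. RARα was called under RA only, with RXRα under both diets, in 5 regions (8.02%) and under control diet only in 4 (2.65%). Among regions with RXRα under both diets, these were 5 and 4 of 24, beside 7046 and 2328 of 46708 over the whole genome. RARα without RXRα was found in 7 regions (18.1%) and RXRα without a RAR in 10 (36.3%). A single region, near 1.2 kb of Cyp4a12a and so in the shared stretch, was called in all 6 lists, where 9.75% of all regions were. Among regions with RXRα under both diets, RARβ was called in 5 of 24 under control diet and 14 of 24 under RA at the cluster, beside 24.3% and 52.6% over all such regions.

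Where a region was called under both diets, its percentiles were compared. The 5 RARβ regions of the cluster all had a higher percentile under RA, by 20.5 to 50.2 points, with medians of 18.3 under control diet and 48.5 under RA. All 5 stood low in the control list, at percentiles of 9.10 to 26.2. By rank, only the region upstream of Cyp4a10 stood higher under RA (12238 under control diet and 9304 under RA). The others stood lower, at ranks 11051 to 13607 under control diet and 14860 to 15741 under RA. Over all 11446 regions called for RARβ under both diets, at any control percentile, 64.4% had a higher percentile under RA. For RXRα 8 of 24 were higher, beside 50.3% of all, and for RARα 3 of 9, beside 62.4%. A percentile depends on how many low peaks a list holds, and the RARβ RA list is 1.97 times as long as its control list.

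At Aldh3a2, RARα was called without RXRα at the start and RXRα without RARα at 3.55 kb, though other regions held both. At the start (chr11:61266378-61267631) RARα scored 242.05 under control diet (rank 7044) and 316.83 under RA (rank 5877), RARβ scored 62.36 under control diet only, and RXRα was not called. Inside the gene at 3.55 kb (chr11:61263467-61264492) RXRα scored 490.47 (rank 6031) and 550.55 (rank 5001), its highest there, and RARβ 116.92 under RA only, without RARα. The RARβ peak nearest to the start thus lay at 215 bp under control diet and at 3508 bp under RA.

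Upstream of Aldh3a2, RXRα alone was called at -1.61 kb (98.10 and 108.22) and at -4.16 kb (187.91 and 289.91). At -6.60 kb (chr11:61273717-61274533) all 6 lists held a peak, with RARα scores of 73.57 and 98.34, RARβ scores of 52.95 and 56.65, and RXRα scores of 450.12 and 245.38. A second region of all 6 lists lay inside the gene at 31.43 kb, where RARβ scored 67.84 under control diet (rank 9013) and 147.24 under RA (rank 8152) and RXRα 435.93 (rank 7536) and 289.17 (rank 14610). These sites hold all 3 receptors under both diets, which the high regions of the Cyp4a cluster did not.

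The highest RARβ peaks near Aldh3a2 were not at the gene. They lay 92.3 kb from its start, beyond its end, in a region of all 6 lists next to the start of Usp22, a ubiquitin-specific protease, with RARβ scores of 224.67 (rank 934) and 378.00 (rank 731). RARα scored 381.62 and 262.41 and RXRα 271.48 and 363.03 there. The highest RARα peak under RA, 334.69 (rank 5180), lay 73.9 kb from the start of Aldh3a2 and upstream of Aldh3a1, a related aldehyde dehydrogenase. Peaks of the Aldh3a2 window can thus belong to its neighbours.

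**Figure D4:**
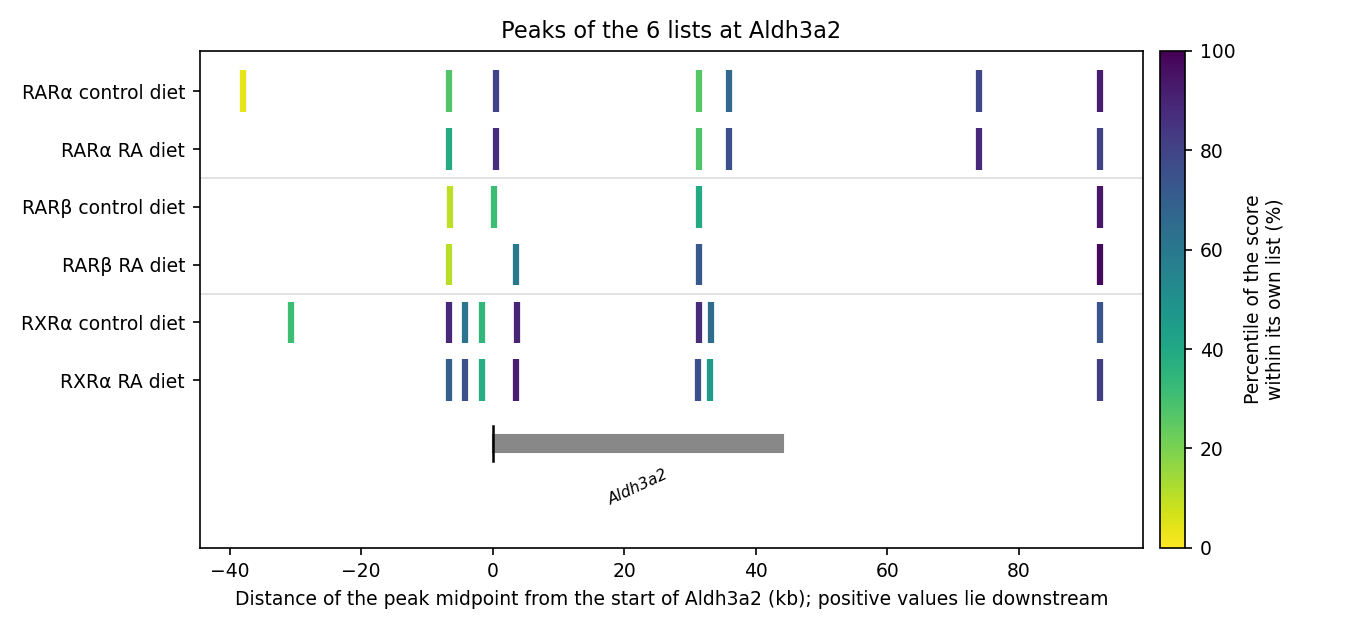
Position of each peak near Aldh3a2, as the distance of its midpoint from the start of the gene in kb in the direction of transcription (horizontal axis), in the 6 lists (rows), with color for the percentile of its score within its own list; the grey bar is the gene and the black tick its start. RARα marks stand at 0.52 and 0.54 kb and RXRα marks at 3.64 and 3.55 kb, under control diet and RA in that order, and a column of 6 marks stands near 92.3 kb.

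Counted by region, 3 of the 12 regions at Aldh3a2 were called in all 6 lists (9.75% of all regions). RXRα was called under both diets in 7 (53.2%), RARα under both diets in 6 (33.8%), RARβ under RA only in 1 (19.8%), RARα without RXRα in 4 (18.1%) and RXRα without a RAR in 4 (36.3%). All 4 RARβ control peaks were shared with RARα and 3 of 4 under RA, beside 74.2% and 72.1% of the whole lists. Between diets, the control peaks not shared were 1 of 7 for RARα (15.8% of the list), 1 of 4 for RARβ (24.2%) and 1 of 8 for RXRα (21.3%). The RA peaks not shared were 0 of 6 for RARα (31.6%), 1 of 4 for RARβ (61.8%) and 0 of 7 for RXRα (19.7%). With RA, 5 of 6 RARα regions, 3 of 3 RARβ regions and 4 of 7 RXRα regions stood at a higher percentile than under control diet, beside 62.4%, 64.4% and 50.3% of all regions. RARα at the start was among them, at 80.2 under control diet and 86.7 under RA. By rank, some of them stood lower under RA. These were RARβ at -6.60 kb (13477 and 26321) and RARα at -6.60 kb (25877 and 27000) and at 31.43 kb (26151 and 32063). With at most 12 regions, these counts cannot be set apart from those shares.

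Other genes of the pathway were given by list. Of 14 other Cyp4 genes, 7 under control diet and 9 under RA had a RARα peak at most 10 kb from the start, 2 and 6 a RARβ peak, and 9 and 9 an RXRα peak. Of the 5 alcohol dehydrogenases, which catalyse the middle step, 5 and 5 had a RARα peak, 1 and 4 a RARβ peak, and 5 and 5 an RXRα peak. Of 4 other family 3 aldehyde dehydrogenases, 3 and 3 had a RARα peak, 0 and 1 a RARβ peak, and 2 and 1 an RXRα peak. Over all protein-coding genes the shares were 63.2% and 64.6% for RARα, 45.1% and 55.9% for RARβ, and 62.6% and 62.9% for RXRα. The lists of genes are short, and no count was tested against these shares. Among the genes of the 3 lists, Adh4 had RXRα scores of 743.02 (rank 2151) and 699.03 (rank 2803), Adh5 had RARα scores of 422.16 (rank 2050) and 416.10 (rank 2839), and Adh1 had a RARβ score of 287.86 (rank 1626) under RA with no RARβ peak under control diet. Aldh3a1, Cyp4a29, Cyp4a30b, Cyp4f18 and Cyp4f37 had no peak within 10 kb in any list. The count of RARβ genes was thus higher under RA in each of the 3 lists, as it was over all genes.

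A second Cyp4 cluster, the 8 Cyp4f genes of chromosome 17, was set beside the Cyp4a cluster. Over 494.7 kb it held 27 and 30 RXRα peaks, 23 and 27 RARα peaks and 6 and 14 RARβ peaks, under control diet and RA. Its highest RXRα peaks stood at ranks 2481 and 4277, below ranks 318 and 323 at the Cyp4a cluster, and 3 and 1 of them were in the top 10% of the list, against 9 and 6. Its highest RARβ peaks stood at ranks 2657 and 3361, above ranks 11051 and 5120 at the Cyp4a cluster. With 1 library each, these are differences between lists of peaks and carry no test.

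The genes whose pattern was most like that of Cyp4a10, by the mean absolute difference in the percentile of the highest peak within 10 kb over the 6 lists, were Lgals9 (2.64 points) and Neu3 (3.57). For Cyp4a10 these percentiles were 84.1 and 72.4 for RARα, 18.3 and 68.4 for RARβ, and 99.5 and 99.3 for RXRα, under control diet and RA. For Aldh3a2 they were 80.2 and 86.7, 31.4 and 59.9, and 90.1 and 91.6, and the nearest genes were Bphl (2.90), Rabep1 (3.05) and Gm9780 (3.51). With only 6 lists, such likeness is a description.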

How the data were processed

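Livers of male C57BL/6 mice under control or RA diet were used for ChIP-seq of RARα, RARβ and RXRα, with 1 library per receptor and diet. The authors aligned 35-bp single-end reads to mm10 with Bowtie and called peaks with MACS, per the study's methods, and deposited 1 peak list per library with a score for each peak. This score is not comparable between libraries and was ranked within each list. The study gives uniquely mapped read totals for RXRα and RARα but names no diet. It describes no ChIP-seq of RARβ, so its totals and methods may be those of other libraries. The depth behind a given list, and with it the precision of a call, is therefore not known.

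Spans of genes were taken from RefSeq (GRCm38.p6) and strands from GENCODE M1 by symbol. Peaks were assigned by midpoint, within 50 kb of the span or 10 kb of the start, called shared at an overlap of 25% of each width, and merged by any overlap into regions. Words of 35 bases were counted in NCBIM37, since no GRCm38 genome was at hand. Peak sequences, exons and introns were not analysed here. Computation used Python 3.11.15, numpy 2.4.6 and pandas 2.3.3 and was tested on simulated data. No test between libraries was possible.

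The genes, gene lists and comparisons were chosen with earlier results of these data known. The text names the 7 genes, regions called in all 6 lists, regions with the highest peak of a list or a peak within 1 kb of a start, and pathway genes with the highest ranks. A gene named by the rule on likeness is not reported here. Regions in the top 10% of the RXRα RA list were added after their values were seen. Alternatives were a window of 10 kb, 1 kb around the start, a score of at least 100, lists of equal length, and an overlap of 50% or 1 bp.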

Additional observations from a re-analysis of the deposited data

Results flagged for a closer look

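At the Cyp4a cluster the ratio of the number of peaks under RA to that under control diet was 3.0 for RARβ (15 against 5) and 0.9 for RXRα (27 against 30), so the same diet went with more peaks of one receptor and fewer of the other. This difference between receptors was not tested, since there was 1 library of each kind. Over the whole lists the ratios were 1.97 and 0.975.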

How the results depend on the processing

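No paired analysis was possible because each receptor and diet had 1 library and no test was run. Numbers of peaks at the Cyp4a cluster and at Aldh3a2 stayed within 1.5 times of the values given when any overlap with the window was counted, and within 10 kb of the spans with the exception of RARα control at Aldh3a2 (4 in place of 7). With a score of at least 100, the cluster held 10 RARα control, 9 RARα RA, 0 RARβ control and 7 RARβ RA peaks, and Aldh3a2 held 4 RARα control and 1 RARβ control peaks. With lists of equal length (14968 peaks), the cluster held 7 RARα control, 6 RARα RA, 8 RARβ RA, 12 RXRα control and 10 RXRα RA peaks, and Aldh3a2 held 4 RARα control, 3 RXRα control and 4 RXRα RA peaks. Within 1 kb of a start, 4 of the 7 genes had a RARα control peak, 1 a RARβ control peak, 1 a RARβ RA peak, 3 an RXRα control peak and 3 an RXRα RA peak. With a score of at least 100, 0 genes had a RARβ control peak and 4 a RARβ RA peak within 10 kb, and with equal lists 4 had a RARβ RA peak and 5 a RARβ control peak, the reverse of the order with all peaks. RA peaks of all 7 genes not shared with control numbered 7 for RARα, and 11 at an overlap of 50%, 2 at a score of at least 100 and 1 with equal lists. They numbered 11 for RARβ, and 7 with equal lists, and 1 for RXRα, and 3 with equal lists. In every setting run the cluster held more RARβ peaks under RA than under control diet. Unknown depth limits each count, and a missing peak can be a peak just under the caller's limit.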
